A study of Mus musculus with 12 samples.

Results

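The chromatin of intestinal organoids given vehicle in place of a fatty acid is described here from 6 of the 12 libraries in the series. These are 2 vehicle libraries each for the histone marks H3K4me3, H3K27ac and H3K27me3. The organoids are 3-dimensional epithelial cultures grown from isolated mouse crypts in a gel matrix, in a medium with EGF, Noggin, R-spondin and the GSK3 inhibitor CHIR-99021, and they received vehicle for 6 days. The labels of these libraries name no strain, sex, age or genotype, whereas GEO's text on the design as a whole names a knockout of a prostaglandin receptor gene (Ptger), so the sources do not settle the genotype. Nor do the labels say that the 2 libraries of a mark came from separate cultures or animals, so the spread between them may be technical. CUT&RUN was used, in which an antibody brings a nuclease to a mark and the DNA around it is cut and released.

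Both ends of each protein-coding gene were read in the mm10 build, because the gene table gives no strand. A gene end counted as marked when a SEACR peak within 1 kb of it had a total signal, score times length, in the upper 50% of the peaks of that mark for H3K4me3 and H3K27ac, or the upper 25% for H3K27me3, in both vehicle libraries. The stricter share for H3K27me3 was set because its libraries agree least. Of 21900 protein-coding genes, 21631 were classed, and the other 269 lie on the Y chromosome or the mitochondrial genome, where the peak table lists no peak. A single end per gene was used, so that marks at opposite ends of a long gene were not joined. This was the end with the highest H3K4me3 total past its threshold. Failing that, H3K27me3 and then H3K27ac set the end in the same way. The order favours classes with H3K4me3, so the shares of the marks and classes depend on it.

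H3K4me3 is laid down at promoters by the COMPASS family of methyltransferases and H3K27ac by p300 and CBP at active promoters and enhancers. H3K27me3 is written by Polycomb repressive complex 2 and is known for holding developmental genes silent. A promoter that carries H3K4me3 and H3K27me3 is called bivalent, a state first described at lineage genes of embryonic stem cells. In bulk libraries it cannot be told apart from a mixture of cells, or of alleles, that carry one mark each, and fewer marked cells cannot be told apart from less signal per cell.

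Promoters of 5 genes are given as examples of sequence, not as typical members of their classes, and were picked after the classes were known. The epithelial adhesion gene Epcam was active, the pluripotency and foregut factor gene Sox2 bivalent and the enteroendocrine factor gene Neurog3 Polycomb-only. The liver albumin gene Alb and the germ cell helicase gene Ddx4 were unmarked. Each run is the 250 bases before the start, read 5′ to 3′ along the gene, from RefSeq on GRCm38.p6, with CG dinucleotides in capitals. They come from chr17:87635729-87635978 (Epcam, plus strand), chr3:34649745-34649994 (Sox2, plus), chr10:62132840-62133089 (Neurog3, plus), chr5:90460620-90460869 (Alb, plus) and chr13:112652311-112652560 (Ddx4, minus).
Epcam: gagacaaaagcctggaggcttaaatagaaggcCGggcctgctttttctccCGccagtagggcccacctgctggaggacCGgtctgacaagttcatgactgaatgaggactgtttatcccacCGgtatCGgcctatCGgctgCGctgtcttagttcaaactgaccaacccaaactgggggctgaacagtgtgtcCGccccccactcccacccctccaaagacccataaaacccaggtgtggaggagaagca
Sox2: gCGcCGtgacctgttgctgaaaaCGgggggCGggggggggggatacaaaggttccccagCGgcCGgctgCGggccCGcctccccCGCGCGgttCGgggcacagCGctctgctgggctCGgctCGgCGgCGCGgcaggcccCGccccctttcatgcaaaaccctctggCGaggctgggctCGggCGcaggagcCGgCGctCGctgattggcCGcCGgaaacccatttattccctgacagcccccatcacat
Neurog3: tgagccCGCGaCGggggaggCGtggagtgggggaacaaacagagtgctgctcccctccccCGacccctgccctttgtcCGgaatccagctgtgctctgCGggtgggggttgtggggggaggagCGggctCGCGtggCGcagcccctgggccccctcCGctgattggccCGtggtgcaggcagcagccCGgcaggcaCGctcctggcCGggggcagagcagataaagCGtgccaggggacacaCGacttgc
Alb: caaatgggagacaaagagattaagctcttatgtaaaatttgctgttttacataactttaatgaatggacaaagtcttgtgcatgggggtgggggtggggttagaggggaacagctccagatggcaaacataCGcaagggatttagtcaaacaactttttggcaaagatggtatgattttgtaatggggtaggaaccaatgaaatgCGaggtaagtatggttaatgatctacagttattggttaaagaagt
Ddx4: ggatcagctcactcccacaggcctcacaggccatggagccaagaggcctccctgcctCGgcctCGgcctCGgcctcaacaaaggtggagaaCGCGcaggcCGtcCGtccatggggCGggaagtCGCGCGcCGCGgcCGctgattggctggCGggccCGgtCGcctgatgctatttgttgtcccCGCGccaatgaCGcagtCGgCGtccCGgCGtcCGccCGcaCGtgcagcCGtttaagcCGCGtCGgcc
The Epcam promoter holds 8 CG dinucleotides, Sox2 27, Neurog3 18, Alb 2 and Ddx4 31. The Ddx4 promoter thus has more CG than the bivalent Sox2 promoter and still carried no mark past its threshold. The median count of CG was 16 in active, 15 in bivalent, 6 in Polycomb-only and 2 in unmarked promoters. Epcam thus lies below the median of its class, and Sox2, Neurog3 and Ddx4 lie above theirs.

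Active ends, with H3K4me3 and H3K27ac and without H3K27me3, were the largest class, at 9372 genes or 43.3% of those classed. They rest on 7627 H3K4me3 peaks, since 3308 of these genes (35.3%) share their peak with another active gene. For H3K4me3 peaks at bivalent ends this share was 14.8%. Bivalent ends numbered 1884 (8.71%) and Polycomb-only ends, with H3K27me3 and no H3K4me3, 1583 (7.32%). H3K4me3 alone marked 2019 genes (9.33%) and H3K27ac alone 208 (0.962%), and 6565 (30.3%) carried no mark past its threshold. By mark, H3K4me3 was found at 61.4% of genes, H3K27ac at 45.6% and H3K27me3 at 16%. Of the bivalent genes, 1609 (85.4%) had no H3K27ac past its threshold, and the 275 with all 3 marks make up 1.27% of all genes. No test was run between classes, since each mark was scored in its own peaks and libraries and genes are not replicates.

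**Figure D1:**
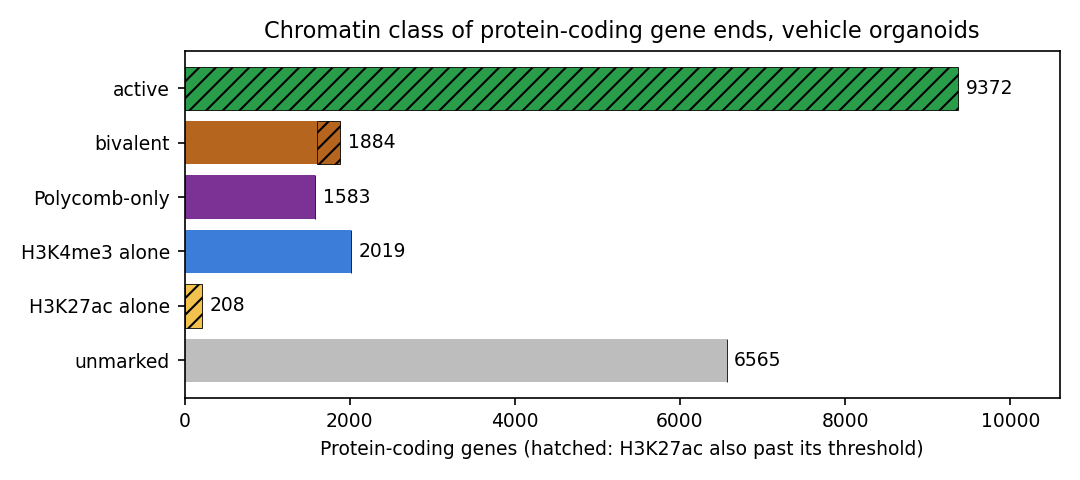
Number of protein-coding genes (x axis) in each of 6 chromatin classes (y axis) in the vehicle organoids; hatched parts are genes whose H3K27ac also passed its threshold. Active genes (9372) outnumber bivalent (1884) and Polycomb-only genes (1583), and most of the bivalent bar is not hatched.

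The peak sets held 58548 H3K4me3, 62547 H3K27ac and 105301 H3K27me3 peaks. The median peak rested on few fragments, with a raw coverage per base of 3.38 and 2.35 in H3K4me3 replicates 1 and 2, 1.95 and 2.45 in those of H3K27ac, and 1.85 and 1.29 in those of H3K27me3. At gene ends with a peak, the total signal of the replicates had a Spearman correlation of 0.99 for H3K4me3 (n = 14355 ends), 0.95 for H3K27ac (n = 11506) and 0.90 for H3K27me3 (n = 6883). Over all peaks it was lower, at 0.90, 0.76 and 0.60. The score alone, which is the mean coverage of a peak on a scale set per library, had 0.97, 0.71 and 0.60 at gene ends and 0.81, 0.51 and 0.19 over all peaks. Both libraries of a mark were scored over the same peaks, so their totals share the length of each peak by design. This shared length carries much of the H3K27me3 agreement. Classed from replicate 1 or replicate 2 alone, over these same peaks, 93.3% of genes had the same class. Of the genes placed in a class by either replicate, both placed 93.2% of the active, 84.2% of the bivalent and 75.5% of the Polycomb-only genes there. The share was 92.2% for unmarked, 65.1% for H3K4me3-alone and 54.3% for H3K27ac-alone genes.

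**Figure D2:**
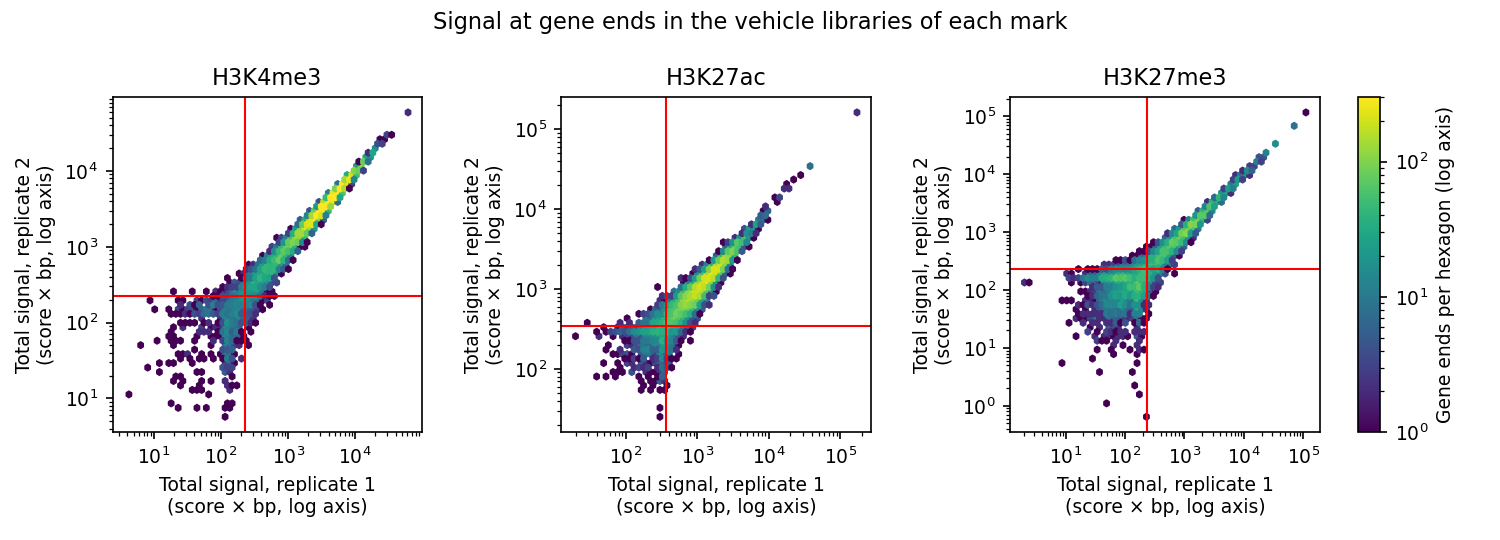
Total signal (score times peak length, log axes) at gene ends in replicate 1 (x) and replicate 2 (y) of each mark, with colour giving the number of ends and red lines the thresholds. Points widen below the thresholds, most of all for H3K27me3, and lie along the diagonal above them.

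Genes near a threshold show how fine the line is. For H3K4me3, Tmc5 lay just inside with total signals of 226.2 and 340.8 and Elmod1 just outside with 225.2 and 225.9. For H3K27ac they were Rdh9 (366.2 and 346.0) and Mt4 (364.2 and 412.1), and for H3K27me3 Olfml1 (253.2 and 228.2) and Med12l (398.3 and 227.6).

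H3K4me3 peaks were lower and shorter at bivalent than at active ends. Their median score was 0.332 and 0.334 at bivalent ends in replicates 1 and 2, against 0.779 and 0.754 at active ends, a ratio of 0.426 and 0.444. Their median length was 2868 bp against 5090 bp. Bivalent ends with H3K27ac stood between, with median H3K4me3 scores of 0.594 and 0.576, and those without it had 0.305 and 0.310. Genes with H3K4me3 alone had 0.473 and 0.463, and 50.9% of them had an H3K27ac peak that missed its threshold. These medians describe classes that a threshold on the same totals helped to define.

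H3K27me3 scores at bivalent ends were 1.13 and 1.15 times those at Polycomb-only ends, over longer stretches. The median score was 0.190 and 0.186 at bivalent ends and 0.168 and 0.162 at Polycomb-only ends, with median lengths of 5824 bp and 4882 bp. Bivalent ends with H3K27ac had a lower median, 0.155 and 0.153, than those without it, 0.195 and 0.191. The H3K4me3 and H3K27me3 peaks shared at least 1 base at 1808 of 1884 bivalent ends (96.0%), and at 901 (47.8%) the H3K4me3 peak lay wholly within the H3K27me3 peak. Over ends with peaks of both marks, the totals of H3K4me3 and H3K27ac had a Spearman correlation of 0.75 in both pairs of replicates (n = 11048). H3K4me3 and H3K27me3 had -0.48 and -0.45 (n = 4328), and H3K27ac and H3K27me3 -0.27 and -0.21 (n = 2153). These are descriptions over genes that share libraries, with no p-value.

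**Figure D3:**
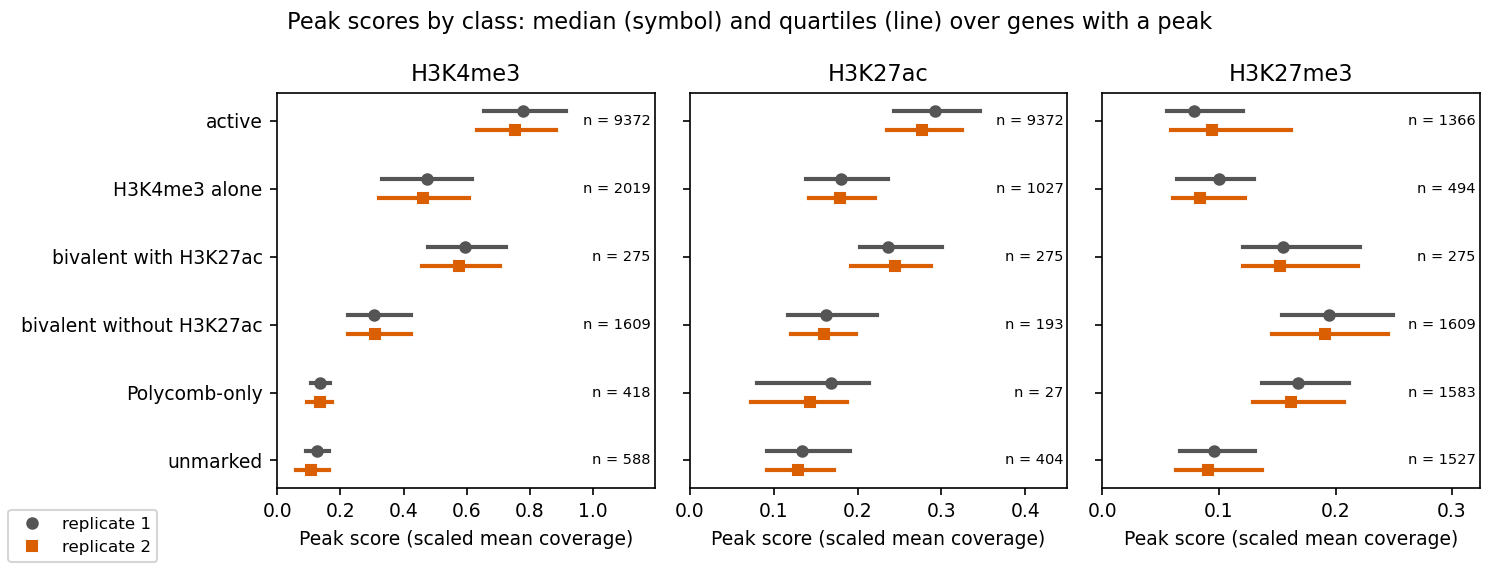
Median (symbol) and quartiles (line) of the peak score of each mark (x axis, scaled mean coverage) by chromatin class (y axis), for replicate 1 (grey circles) and replicate 2 (orange squares); n is the number of genes with a peak of that mark, whether or not it passed. Median H3K4me3 scores go from 0.779 and 0.754 at active ends to 0.305 and 0.310 at bivalent ends without H3K27ac.

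All 16 epithelial marker genes were active, against 43.3% of all genes. At Epcam the H3K4me3 score was 1.02 in replicate 1 and 0.983 in replicate 2 and the H3K27ac score 0.488 and 0.403, with no H3K27me3 peak. The actin-bundling gene Vil1 of the brush border had 1.01 and 0.877 for H3K4me3 and 0.361 and 0.285 for H3K27ac. The cell adhesion gene Cdh1 had 0.695 and 0.651 over 19647 bp and H3K27ac of 0.387 in both libraries. At the keratin gene Krt8 a short H3K27me3 peak of 930 bp had 0.0304 in replicate 1 and 0.251 in replicate 2, and passed in the second library alone.

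Intestinal identity factors were active in 17 of 20 cases (85%, against 43.3% of all genes). The master factor genes of the intestine Cdx2 (H3K4me3 1.36 and 1.34, H3K27ac 0.439 and 0.427), Gata4 (1.30 and 1.30, 0.536 and 0.502) and Gata6 (1.56 and 1.51, 0.431 and 0.499) lay among the highest H3K4me3 peaks. Cdx1 had 0.992 and 0.897, and the nuclear receptor gene Hnf4a 0.99 and 0.922. The bivalent members included Maf and Prdm1, which encodes Blimp1, a repressor active in the fetal intestinal epithelium. Maf had an H3K27me3 score of 0.192 and 0.196 over 4569 bp and H3K4me3 of 0.54 and 0.552. At Prdm1 all 3 marks passed (H3K27me3 0.193 and 0.202), at the gene end that is no listed start; read at its RefSeq starts, Prdm1 was active.

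The 8 strongest active genes, ranked by their weakest mark and library, were Lrig1, Krt15, Nfe2l2, Cdx2, Tgif1, Cps1, Rnf43 and Fam120a. Lrig1, a negative regulator of EGF receptor signalling and a crypt stem cell marker, had an H3K4me3 peak of 41966 bp (1.37 and 1.36) and an H3K27ac peak of 64689 bp (0.348 and 0.344). Rnf43, a ubiquitin ligase that removes Wnt receptors, had H3K4me3 of 1.08 and 1.01 over 31535 bp. Nfe2l2 encodes the antioxidant response factor Nrf2 (0.992 and 0.947), and Cps1 the urea cycle enzyme that makes carbamoyl phosphate (1.05 and 0.997).

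Cell cycle genes were active in 23 of 23 cases, against 43.3% of all genes. The proliferation marker gene Mki67 had H3K4me3 of 1.10 and 1.03 and H3K27ac of 0.293 and 0.265, and the topoisomerase gene Top2a 1.10 and 0.962 with 0.297 and 0.340. Ribosomal protein genes were active in 76 of 81 cases and housekeeping genes in 15 of 16. The exception among the latter, Ywhaz, was unmarked at its outer ends and has 2 passing H3K4me3 peaks within the gene, and no listed start. The bivalent ribosomal protein genes, 3 in number and 6 without replicate 1, included the X-linked Rpl10 and Rps4x.

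Stem cell genes were active in 12 of 20 cases (60%, against 43.3% of all genes), and 5 were bivalent: Bmi1, Ascl2, Lgr5, Tnfrsf19 and Olfm4. The share bivalent, 25.0%, compares with 8.71% of all genes. Lgr5, the R-spondin receptor that marks crypt base stem cells, had an H3K4me3 score of 0.924 and 0.923, at percentiles 98.6 and 98.7 of total signal, with H3K27ac of 0.242 and 0.274. Its H3K27me3 peak was low and long, 0.0753 and 0.0806 over 5415 bp, and passed by length, since its score lay below the median H3K27me3 score of 0.107 and 0.105. Olfm4, another crypt base marker, had the same form (0.0904 and 0.0669 over 5226 bp).

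At Ascl2, the Wnt-driven stem cell factor, H3K27me3 was 0.113 and 0.113, just above that median. Bmi1, a subunit of Polycomb repressive complex 1, had higher H3K27me3, 0.260 and 0.234 over 3214 bp, with H3K4me3 of 0.525 and 0.517 and no H3K27ac peak. Tnfrsf19 had 0.163 and 0.228. When the H3K27me3 score had also to lie in the upper 50%, the bivalent count of the list went from 5 to 3, and it was 2 with the mean score in place of the total or with the upper 10% of H3K27me3 peaks. Bmi1 and Tnfrsf19 were bivalent in all 3 readings, Lgr5 and Olfm4 were active in all 3, and Ascl2 was active in the last 2. Axin2, a Wnt feedback gene, was unmarked at its ends but active at its RefSeq starts, and Msi1 had 1 passing H3K4me3 peak within the gene.

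Enterocyte genes, which serve absorption, were active in 17 of 25 cases (68%, against 43.3% of all genes). None was Polycomb-only, a class that holds 7.32% of all genes. The sucrase gene Sis had H3K4me3 of 0.314 and 0.299 and H3K27ac of 0.242 and 0.239, and the fatty acid binding protein gene Fabp1 0.360 and 0.433 with 0.180 and 0.145. H3K4me3 alone was found at 4 of them, Slc2a2, Enpep, Anpep and Apoa1. The peptidase gene Anpep had a strong H3K4me3 peak (0.632 and 0.673 over 11428 bp) and no H3K27ac peak. The lactase gene Lct was unmarked at its ends and starts. The median H3K4me3 score of the list, 0.425 and 0.433, was lower than the 0.928 and 0.879 of the stem cell genes.

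H3K27me3 marked 12 of 20 enteroendocrine genes (60%) and 6 of 15 tuft cell genes (40%), against 16% of all genes. By the mean score it marked 7 and 1 of them, against 10.3% of all genes, so the tuft cell share then lies below that of all genes. Neurog3, the factor that starts the enteroendocrine lineage, was Polycomb-only, with H3K27me3 of 0.112 and 0.0853 over 5354 bp and no peak of another mark. Its target Neurod1 had 0.152 and 0.102 over 7859 bp. Factor genes of the same lineage were bivalent: Pax6 (H3K27me3 0.415 and 0.412 over 42038 bp, H3K4me3 0.185 and 0.14), Insm1, Rfx6 and Isl1. The hormone genes Sct and Gip were active, Ghrl had H3K27ac alone, and Gcg, Sst and Nts were unmarked.

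The tuft cell factor gene Pou2f3 was bivalent with H3K27me3 of 0.0948 and 0.107, and the kinase gene Dclk1 (0.151 and 0.142), the cytokine gene Il25 and the factor gene Gfi1b were Polycomb-only. Trpm5, a tuft cell channel gene, counted as active at an end that is no listed start and was unmarked at its RefSeq starts. The strength measure matters for both lists: by the mean score, Polycomb-only enteroendocrine genes number 4 in place of 8 and tuft cell genes 1 in place of 4, and Neurog3, Neurod1, Dclk1 and Gfi1b are then unmarked.

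Goblet and Paneth cell genes were spread over all classes, 4 active, 2 bivalent, 3 Polycomb-only, 3 with H3K4me3 alone, 1 with H3K27ac alone and 4 unmarked of 17. The active share was 23.5%, against 43.3% of all genes, and the Polycomb-only share 17.6%, against 7.32%. The mucin gene Muc2 of goblet cells was bivalent, with low H3K4me3 (0.149 and 0.165) and H3K27me3 of 0.181 and 0.198 over 10465 bp, and was Polycomb-only by the mean score. Retnlb (0.189 and 0.160), Zg16 (0.231 and 0.168) and the factor gene Spdef (0.133 and 0.1) were Polycomb-only. The lysozyme gene Lyz1 of Paneth cells had H3K4me3 alone (0.198 and 0.175), and Agr2 and Fcgbp were active. Defensin genes were unmarked in 60 of 70 cases (85.7%, against 30.3% of all genes). The alpha-defensin (Defa) genes include near-copies whose reads are hard to place, and the single Defa24 call is uncertain for that reason.

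Atoh1, the factor that sends progenitors to the secretory fate, carried all 3 marks. H3K4me3 was 0.623 and 0.640 and H3K27me3 0.363 and 0.349 over 8369 bp. H3K27ac was weaker, at 0.173 and 0.229, and lay below the median H3K27ac peak score of 0.188 in replicate 1 and above that of 0.175 in replicate 2. The bivalent class held in 13 of 14 alternative settings. The Notch effector gene Hes5 was also marked by all 3 (H3K27me3 0.145 and 0.153), while Hes1, the main Notch effector of the crypt, was active (H3K4me3 0.855 and 0.804) with no H3K27me3 peak. Gfi1, which acts after Atoh1, was bivalent (H3K27me3 0.343 and 0.342 over 26527 bp). Id2 passed with 0.110 and 0.251. Of 20 lineage transcription factor genes, 13 were active (65%, against 43.3% of all genes), 4 bivalent (20%, against 8.71%) and 2 Polycomb-only (10%, against 7.32%). By the mean score 8 of them were active.

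Genes of the fetal-like and regenerative state, which the epithelium enters after injury, were active in 8 of 19 cases (42.1%), close to the 43.3% of all genes. Clu, Anxa1, Anxa3 and Ly6a had H3K4me3 alone, at 0.223 and 0.201, 0.271 and 0.229, 0.404 and 0.398, and 0.111 and 0.125. Without replicate 2, 1 gene of the list had H3K4me3 alone and 12 were active, Anxa3 among them. The EGF receptor ligand genes Ereg (0.269 and 0.232) and Areg (0.508 and 0.420) and the keratin gene Krt7 were active. The cyclin gene Ccnd2 was bivalent and had all 3 marks, with H3K4me3 of 0.683 and 0.689, H3K27ac of 0.296 and 0.250 and H3K27me3 of 0.292 and 0.284. Spp1 was Polycomb-only, and Msln, Sprr1a and Il33 were unmarked, though Il33 was active at its RefSeq starts.

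Wnt ligand genes were bivalent in 13 of 19 cases (68.4%, against 8.71% of all genes) and Polycomb-only in 4 (21.1%, against 7.32%). None carried H3K27ac past its threshold, which 45.6% of all genes did. Wnt3, the ligand made by Paneth cells, had H3K4me3 of 0.247 and 0.208 and H3K27me3 of 0.279 and 0.274. Wnt1 had 0.314 and 0.316 with 0.257 and 0.242, and the mesenchymal ligand gene Wnt5a 0.177 and 0.143 with 0.214 and 0.195. Wnt4 was Polycomb-only (0.197 and 0.185), Wnt10b had H3K4me3 alone and Wnt8a was unmarked. With the upper 25% required of all 3 marks, 4 Wnt ligand genes were bivalent and 14 Polycomb-only, so whether these genes count as bivalent turns on the H3K4me3 threshold.

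Wnt target genes were split, with 9 of 22 bivalent (40.9%, against 8.71% of all genes), 7 active and 3 Polycomb-only. By the mean score 6 were bivalent and 10 active, and with the upper 10% of H3K27me3 peaks 7 and 9, so the order of these classes turns on the setting. The bivalent members included feedback inhibitors and effectors of the pathway: Sp5 (H3K4me3 0.478 and 0.473, H3K27me3 0.256 and 0.265), Lef1 (0.593 and 0.577, 0.252 and 0.305), Notum (0.497 and 0.452, 0.179 and 0.153) and Nkd1 (0.298 and 0.272, 0.159 and 0.210). The secreted inhibitor gene Dkk1 was Polycomb-only, with 0.221 and 0.222 over 5135 bp. Rnf43, Znrf3, Myc, Ccnd1, Cd44, Ephb2 and Ephb3 were active.

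**Figure D4:**
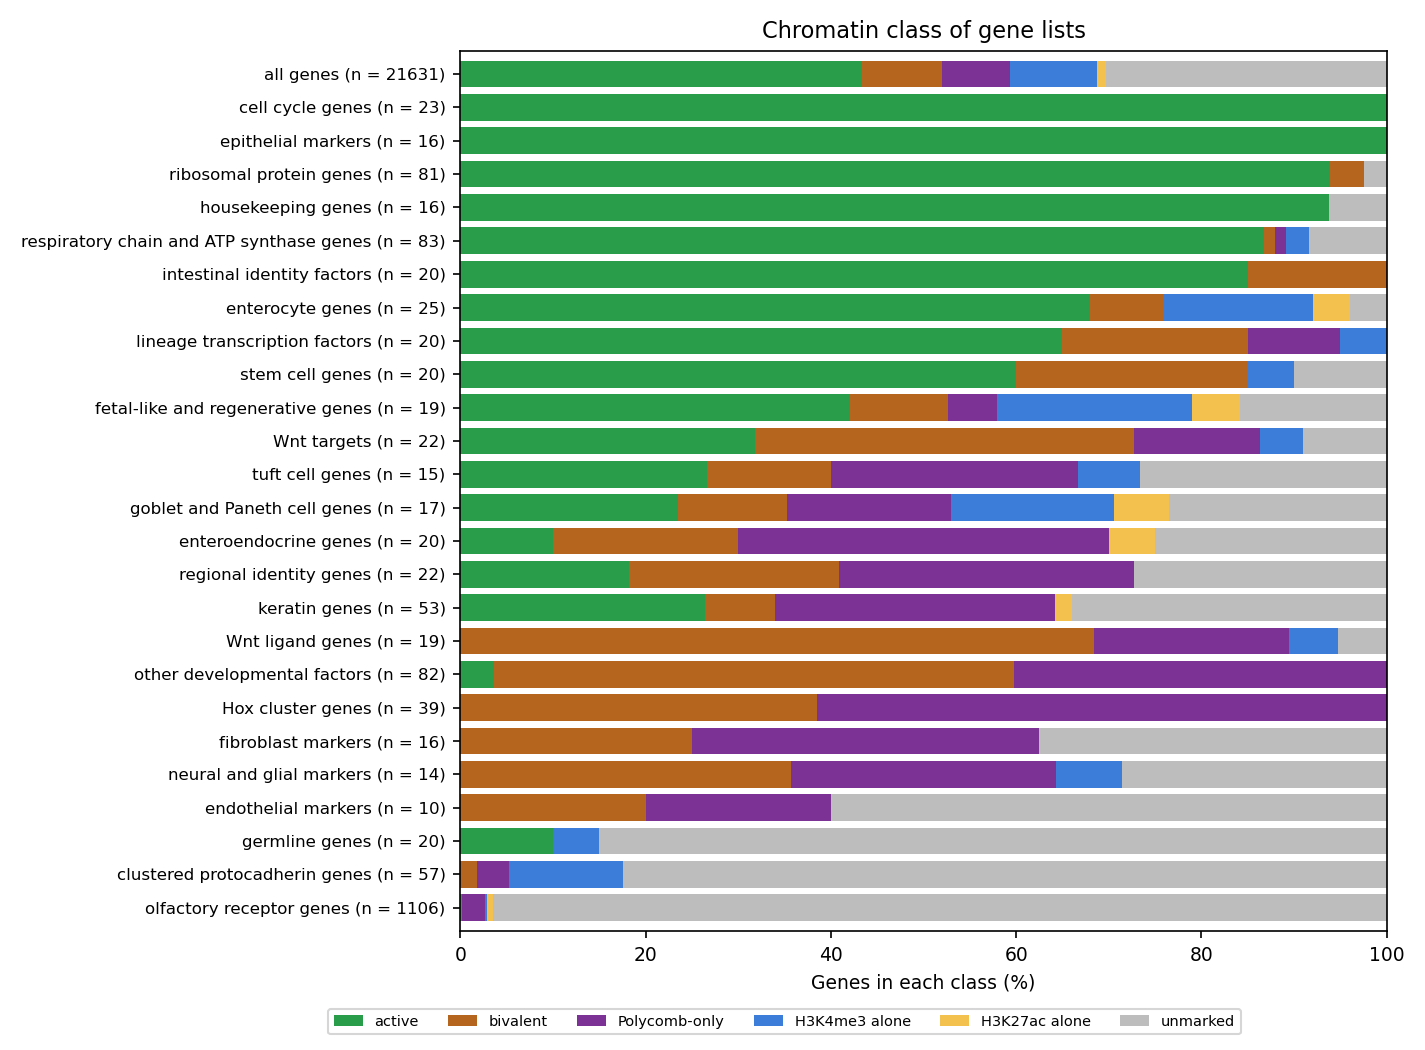
Share of the genes of each list (x axis, percent) in each chromatin class (colours), with all classed genes in the top bar and n the number of genes in the list. Epithelial and cell cycle genes are all active, Hox cluster genes are all bivalent or Polycomb-only, and 17 of 20 germline genes are unmarked.

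Hox cluster genes, which set position along the body axis, carried H3K27me3 in 39 of 39 cases, against 16% of all genes. Of these, 24 were Polycomb-only and 15 bivalent, and none had an H3K27ac peak. The H3K27me3 peaks there were among the widest of all: 144400 bp over 9 Hoxc genes (score 0.46 and 0.444), 88436 bp over 7 Hoxb genes (0.397 and 0.376), 68451 bp over 9 Hoxa genes (0.545 and 0.483), and 59300 bp and 49475 bp in Hoxd. Since genes within a peak share its value, these are a few blocks of signal and not 39 separate ones. The clusters differed in H3K4me3, with 7 of the 9 genes in the wide Hoxa peak bivalent and 2 of 9 in the Hoxc peak. Hoxa9 had H3K4me3 of 0.309 and 0.365 and Hoxa13 0.189 and 0.238, whereas Hoxc10 and Hoxb13 had no H3K4me3 peak at the end read. The Hox bivalent count is 3 when the upper 25% of H3K4me3 is required and 27 with any peak, and all 39 stay marked by H3K27me3 in both. With MACS2 peaks, which are few and short for H3K27me3, 1 of the 39 was marked.

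Developmental transcription factor genes outside the Hox clusters were marked by H3K27me3 in 79 of 82 cases (96.3%, against 16% of all genes), 46 of them bivalent and 33 Polycomb-only. With the upper 25% for all 3 marks 19 were bivalent and 60 Polycomb-only, and by the mean score 35 and 42, so which of these was the larger depends on the setting. The neural factor genes Zic1 and Zic4 shared a peak of 61526 bp (0.305 and 0.276). Nkx2-3, a factor of the gut mesenchyme, had 0.441 and 0.430 over 52037 bp, and Hand2, a heart and limb factor, 0.392 and 0.391 over 51612 bp. Gata3 was bivalent (H3K27me3 0.396 and 0.363), unlike Gata4 and Gata6. Active members included the T-box gene Tbx3 (H3K4me3 1.30 and 1.29) and Pax8 (0.432 and 0.506). At Tbx3 a short H3K27me3 peak of 1102 bp had 0.0538 and 0.187.

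Regional identity genes were active in 4, bivalent in 5, Polycomb-only in 7 and unmarked in 6 of 22 cases. Their active share was 18.2%, against 43.3% of all genes, and H3K27me3 marked 54.5%, against 16%. Gata4, of the proximal small intestine, Onecut2 (H3K4me3 1.23 and 1.27), the ileal bile acid transporter gene Slc10a2 (0.159 and 0.150) and the bile acid receptor gene Nr1h4 (0.776 and 0.619) were active. The duodenal and pancreatic factor gene Pdx1 (H3K27me3 0.174 and 0.155), the foregut gene Sox2 (0.326 and 0.3 over 34054 bp) and the hindgut genes Hoxa13 and Hoxd13 were bivalent. Pdx1 was read at an end that is no listed start, and had H3K4me3 alone at its RefSeq starts. Hoxb13 and the stomach factor gene Barx1 were among 7 Polycomb-only members, and the stomach mucin gene Muc5ac among 6 unmarked.

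Genes of the Polycomb and trithorax groups were active in 23 of 34 cases (67.6%, against 43.3% of all genes). Among these were Ezh2, Eed and Suz12, the core of the complex that writes H3K27me3. The 5 bivalent members (14.7%, against 8.71% of all genes) included Bmi1, Pcgf1, Cbx2 and Cbx8, which belong to Polycomb repressive complex 1 or its variants. At RefSeq starts 2 of 26 members were bivalent, against 1402 of 17274 genes. With the peak over the gene end itself, 2 of 34 were, against 1345 of 21631, so the higher share turns on the setting. Cbx8 had H3K27me3 of 0.282 and 0.270 over 20759 bp and H3K4me3 of 0.752 and 0.591, and Cbx2 0.292 and 0.239 with 0.593 and 0.546. Pcgf1 (0.220 and 0.244) and Cbx8 (0.154 and 0.146) also had H3K27ac past its threshold.

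Cyclin-dependent kinase inhibitor genes were bivalent at 3 of 7 loci (42.9%, against 8.71% of all genes), and at 1 of 7 by the mean score. Cdkn2a, which encodes p16 and p19Arf and is a known Polycomb target, had H3K27me3 of 0.337 and 0.379 over 21175 bp and H3K4me3 of 0.342 and 0.334. The imprinted gene Cdkn1c had 0.150 and 0.166 with 0.218 and 0.154. Cdkn2b, the neighbour of Cdkn2a, had a weaker H3K27me3 peak, 0.155 and 0.0785, and was active at its RefSeq starts, by the mean score and with the upper 10% of H3K27me3 peaks. It had H3K4me3 alone when the H3K27me3 score had also to lie in the upper 50%. Cdkn1a, the p53 target, had H3K4me3 alone at the end read (0.715 and 0.601) and was active at its starts.

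Prostaglandin and arachidonate genes, the pathway the series perturbs, held 8 active, 3 bivalent, 2 Polycomb-only and 8 unmarked members of 23. The active share was 34.8%, against 43.3% of all genes, and the bivalent share 13.0%, against 8.71%. Without replicate 1 the Polycomb-only genes numbered 4, and without replicate 2 there was 1. Of the prostaglandin E receptor genes, Ptger4 was active (H3K4me3 1.04 and 1.04, H3K27ac 0.218 and 0.283). Ptger2 was bivalent (H3K4me3 0.230 and 0.323, H3K27me3 0.237 and 0.247 over 12196 bp), Ptger3 Polycomb-only (H3K27me3 0.201 and 0.177) and Ptger1 unmarked. The degrading enzyme gene Hpgd was active (H3K4me3 0.945 and 0.972), and the uptake transporter gene Slco2a1 bivalent (0.504 and 0.407, H3K27me3 0.104 and 0.103). The H3K27me3 peak of Slco2a1 passed by length, since its score lay below the median of 0.107 and 0.105. Ptgs2, the inducible cyclooxygenase, was unmarked, with an H3K4me3 peak below threshold (0.0919 and 0.0709), and Ptgs1 was unmarked at its ends and Polycomb-only at its starts. A marked promoter in whole organoids does not show which cells carry it.

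None of 16 fibroblast, 10 endothelial or 14 neural and glial marker genes was active, against 43.3% of all genes. H3K27me3 marked 10, 4 and 9 of them, against 16% of all genes, and 6, 4 and 5 by the mean score, against 10.3% of all genes by that measure. The fibroblast genes Pdgfra (H3K27me3 0.313 and 0.319, H3K4me3 0.415 and 0.441), Foxf1, Col1a1 and Twist1 were bivalent, and Twist2 and Prrx1 Polycomb-only. The endothelial genes Kdr and Sox17 were bivalent and Pecam1, Cdh5 and Tek unmarked, although Pecam1 and Tek have passing H3K4me3 peaks within the gene. Of 15 blood cell markers 1, Cd68, was active, and Ptprc was among 6 unmarked. Acta1 was the 1 active gene of 12 muscle markers, of which 3 had H3K4me3 alone and 4 were unmarked. H3K27me3 marked 5 of the 15 and 3 of the 12, and 1 and 2 by the mean score. With peaks within 2.5 kb, 4 blood cell, 1 endothelial and 0 muscle markers were active. Genes of liver, pancreas and lung were active in 4 of 16 cases (25%, against 43.3% of all genes). These were the urea cycle gene Cps1, the apolipoprotein gene Apoa2, the thyroid hormone carrier gene Ttr and the airway secretory gene Scgb1a1. Of the 11 genes of this list with a RefSeq start, 1 was active there. With the peak over the gene end itself, 2 of the 16 were active, so not all of these calls are secure. H3K27me3 marked 4 of the 16 (25%, against 16% of all genes). Vim, a mesenchymal filament gene, was bivalent (H3K27me3 0.211 and 0.227 over 14455 bp).

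Receptor gene families of sensory neurons were mostly unmarked, without H3K27me3: 1067 of 1106 olfactory (96.5%) and 344 of 353 vomeronasal receptor genes (97.5%), against 30.3% of all genes. These families hold many near-copies, where reads are hard to place. Clustered protocadherin genes were unmarked at their ends in 47 of 57 cases, but 25 of the 47 have a passing H3K4me3 peak within the gene, and none has a listed start. Germline genes were unmarked in 17 of 20, and 6 of the 14 unmarked members with a listed promoter have a CpG-rich one: Ddx4, Mael, Figla, Sycp1, Sycp3 and Tex101. Ddx4 had an H3K27me3 peak of 0.125 and 0.0744 that passed in replicate 1 alone. The 2 active germline calls, Hormad1 and Gdf9, are not secure, since Hormad1 was unmarked at its RefSeq starts and no start of Gdf9 is listed. Keratin genes held 14 active of 53 (26.4%, against 43.3% of all genes), 16 Polycomb-only (30.2%, against 7.32%) and 18 unmarked (34.0%, against 30.3%). The Polycomb-only count is 3 of 53 by the mean score, against 1098 of all 21631 genes.

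On the X chromosome, 26.4% of 966 genes were Polycomb-only, against 6.43% of 20665 autosomal genes, and 13.98% against 8.46% were bivalent. Active genes made up 14.3% on X and 44.7% on autosomes. Acsl4, which activates arachidonate, is an X-linked bivalent gene (H3K27me3 0.0858 and 0.143), and the X-linked housekeeping gene Hprt was active with an H3K27me3 peak of 0.141 and 0.0382 that did not pass. In replicate 1 the H3K27me3 score of Acsl4 lay below the median of 0.107. The sex of the donor animals is not given in the labels.

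The 8 strongest bivalent genes were Sfi1, Ugt1a1, Hjurp, Zfp503, Sprr2a1, Ccnd2, Sp140 and Nr4a3. At 15 genes the H3K27ac and H3K27me3 peaks were both over 10 kb and shared at least 80% of their extent, a limit set after the data were seen. They include Sfi1, Hjurp, Sp140, Trpm8, the Ugt1a genes with Mroh2a, and predicted genes. At Sfi1 the H3K4me3 score was 2.23 and 2.16, the H3K27ac score 2.1 and 1.997 and the H3K27me3 score 1.45 and 1.51, each far above the median of its mark. Several of these loci hold repeated or multicopy sequence, so the calls there are uncertain. The 260 other genes with all 3 marks include Zfp503 (0.627 and 0.587, 0.226 and 0.269, 0.260 and 0.247) and the orphan nuclear receptor gene Nr4a3 (0.812 and 0.833, 0.299 and 0.301, 0.367 and 0.346). Scores are in the order H3K4me3, H3K27ac and H3K27me3, with the last above the bivalent median of 0.190 and 0.186. Scores below 1 do not set these 2 genes apart from all of the 15. At Sp140 they were 0.392 and 0.420, 0.501 and 0.478, and 0.439 and 0.456. Of the 275, 232 had 3 peaks that share a base.

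The strongest genes with H3K4me3 alone were Nectin3, Garre1, Ccdc85c, Rhot2, Pdgfa, Hunk, Ctc1 and Zfp516. Garre1 and Zfp516 have no listed start, and for the other 6 the end read is no listed start and the gene was active at its RefSeq starts. Among the strongest genes with H3K27ac alone, Tbxas1, Zfp787, Dennd6a and Cyp2j6 were likewise active at their starts, and the H3K27ac peak of Hsf5 (26408 bp) is the one at the start of its neighbour Rnf43. Tnip1 had H3K27ac alone at its start too (0.272 and 0.239). The end read was a RefSeq start for 83.7% of active, 77.5% of bivalent, 63.8% of Polycomb-only, 75.9% of H3K4me3-alone and 40.6% of H3K27ac-alone genes with a listed promoter. Calls of H3K27ac alone thus rest more often than the others on an end that is not a known start. Of 5196 unmarked genes with a listed start, 93.4% were unmarked there as well.

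Promoter sequence, which the classes did not use, differed between them, but the class helped to set which start was read. For a marked gene this was the start nearest the end read if within 1 kb. In all other cases, and for every unmarked gene, it was the most upstream start. A promoter was called CpG-rich when the 250 bases before the start had a CpG observed over expected ratio of at least 0.6 and at least 50% GC. This held for 65.8% of 7639 active promoters, 56.2% of 1435 bivalent and 49.4% of 1614 with H3K4me3 alone. Of 1225 Polycomb-only promoters it held for 24.4%, and of 5196 unmarked ones for 6.93%, against 42.3% of all 17274. Where the end read was a listed start, it held for 69.4% of active, 62.3% of bivalent, 52.4% of H3K4me3-alone and 27.4% of Polycomb-only promoters. Unmarked genes had no such window by rule. Among CpG-rich promoters, 68.8% were active, 11.0% bivalent and 4.93% unmarked, and among the others 26.2%, 6.31% and 48.5%. The letters TATAAA, searched on both strands, occurred in 6.28% of active, 7.18% of bivalent, 13.5% of Polycomb-only and 24.2% of unmarked promoters, against 12.5% of all. Such a match is a description of the window and not a binding site.

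**Figure D5:**
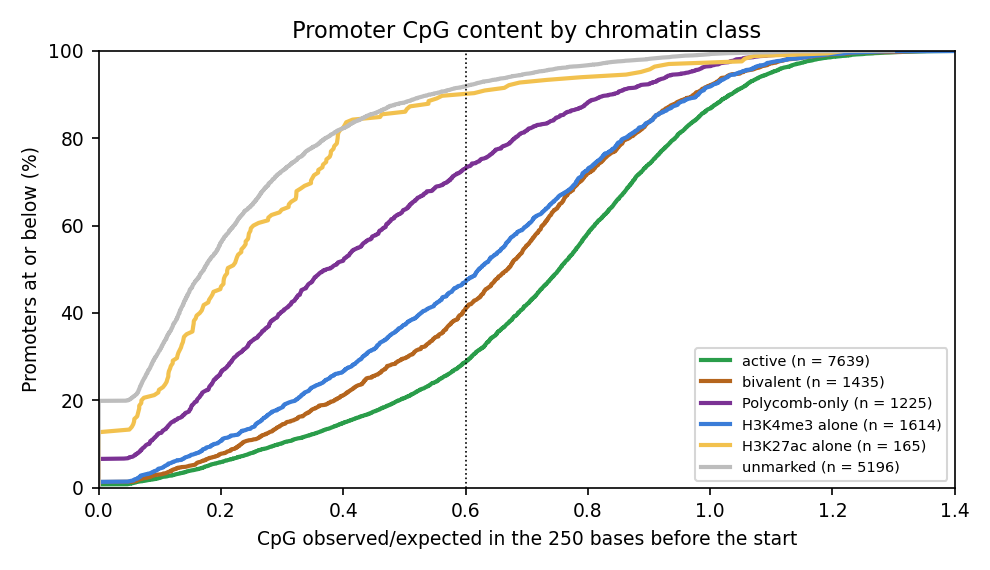
Cumulative share of promoters (y axis, percent) at or below a CpG observed over expected ratio (x axis) in the 250 bases before the RefSeq start, by chromatin class; n is the number of genes with a listed promoter and the dotted line marks 0.6. The unmarked curve lies far to the left of the active one, with Polycomb-only between unmarked and bivalent.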

How the data were processed

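The authors deposited 1 table of signal, a score per peak and library, for SEACR and MACS2 peaks on mm10, per the submitters' processing notes; the aligner, the versions and how libraries were scaled: not given in the sources used here. Multiplied by peak length, 100% of the scores below 1000 steps fell within 0.1 step of a whole number of steps of fixed size in each library, as scaled mean coverage would. Rows named as control were taken as vehicle, the only group left for them.

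Computed here were total signal (score times length), percentiles within each mark, and the classes given in the report (Python 3.11.15, numpy 2.4.6, pandas 2.3.3, scipy 1.17.1); the classifier was checked on simulated data. No test was run: 2 libraries per mark and separate peaks per mark allow none between marks. Gene ends came from the RefSeq table of GRCm38.p6 (mm10), and 17274 classed genes matched a promoter.

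Named genes are the 8 strongest per marked class, up to 4 per list in its most frequent class and up to 4 in others, the 5 strongest bivalent genes with and without H3K27ac, genes beside the thresholds and a fixed set, 310 in all. Other members of lists were named after their values were seen. Members, lists and rules were chosen with earlier results of these data known. The alternatives were 11 planned settings and 3 added after the data were seen. A few genes that this rule or the lists name are left out of the text.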

Additional observations from a re-analysis of the deposited data

How the results depend on the processing

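Under 14 alternative settings, most class counts stayed within 1.5 times those reported, and 3 settings moved 3 or more of the 6. With MACS2 peaks, of which there were 36552 for H3K4me3, 9817 for H3K27ac and 1828 for H3K27me3 (the longest 5495 bp, and at 3 of 39 Hox genes), there were 2009 active genes, 11 bivalent (1 with H3K27ac), 56 Polycomb-only, 8600 with H3K4me3 alone, 16 with H3K27ac alone and 10939 unmarked; the ratio of median H3K4me3 scores, bivalent over active, was 0.544 against 0.435, and 66.7% of bivalent and 17.6% of unmarked promoters were CpG-rich. Active epithelial markers then numbered 1 of 16, active cell cycle genes 3 of 23 and active stem cell genes 0 of 20, and H3K27me3 marked 3 of 82 developmental factor genes and 1 of 39 Hox genes. With any SEACR peak there were 4380 bivalent genes (2079 with H3K27ac), 2487 Polycomb-only, 1080 with H3K4me3 alone, 347 with H3K27ac alone and 4352 unmarked, a ratio of 0.565, and 4.77% CpG-rich among the unmarked. With the upper 25% for all 3 marks there were 952 bivalent genes (127 with H3K27ac), 2588 Polycomb-only and 3300 with H3K4me3 alone, a ratio of 0.590, and 59.4% and 8.65% CpG-rich among bivalent and unmarked. By the mean score there were 1122 bivalent genes (163 with H3K27ac) and 7.99% CpG-rich among the unmarked. For peaks over the gene end itself, 155 bivalent genes had H3K27ac, with 0.418 and 9.27%; within 2.5 kb, 490, with 0.468 and 5.85%. RefSeq starts alone gave 96 genes with H3K27ac alone, and 59.99% and 4.46% CpG-rich. The upper 50% for all 3 marks gave a ratio of 0.451. Of the settings added after the data were seen, the upper 10% of H3K27me3 gave 173 bivalent genes with H3K27ac and 0.413, and a score also in the upper 50% gave 0.421. Without replicate 1 or replicate 2, bivalent genes numbered 2043 to 2074 and those with H3K27ac 340 to 387. The cause of the differences was not tested beyond the peak numbers given. No paired analysis was possible because no result comes from a test. Peak coverage of about 1 to 3 fragments per base limits weak peaks, of H3K27me3 above all.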

Other observations

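A few SEACR peaks stood far above the rest. With a limit of 20, set after the data were seen, 10 H3K4me3, 9 H3K27ac and 8 H3K27me3 peaks had a higher score, up to 4242, 3305 and 6037, and no gene end was read at any of them.

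The catalogue of 394 zinc finger Zfp genes, not described above, was active in 247 cases (62.7%), against 43.3% of all genes. H3K4me3 alone marked 63 of them (16.0%, against 9.33%), and 45 were unmarked (11.4%, against 30.3%). Cytochrome P450 genes were active in 22, bivalent in 6, Polycomb-only in 7 and unmarked in 46 of 98 cases. The active share was 22.4%, against 43.3% of all genes, and the unmarked share 46.9%, against 30.3%. The bivalent share (6.12%) and Polycomb-only share (7.14%) lay near the 8.71% and 7.32% of all genes. Respiratory chain and ATP synthase genes were active in 72 of 83 (86.7%, against 43.3% of all genes). Among the others, the X-linked Cox7b was bivalent, and unmarked members included Cox8b, Cox6a2 and Cox4i2, isoform genes of subunits that other tissues use. Cox5a and Cox7a2 were unmarked at their ends too, but active at their RefSeq starts.

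Of genes with H3K4me3 and no H3K27me3 at the end read, 335 of 11391 (2.94%) had H3K27me3 at the other end. H3K27me3 blocks that covered the ends of 3 genes or more included Hmx2, Hmx3 and Bub3 in 23396 bp on chromosome 7 (0.483 and 0.436). Bub3, a mitotic checkpoint gene, counted as bivalent there.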
